A study of Mus musculus with 6 samples.

Results

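Prostaglandin genes were followed in mouse colonic organoids, which are cultures of colon epithelium grown in Matrigel. The 10 genes were taken by name as those for prostaglandin synthesis, breakdown and reception, out of 40840 genes in the deposited table: the phospholipase gene Pla2g4a, the cyclooxygenase genes Ptgs1 and Ptgs2, the prostaglandin E synthase genes Ptges, Ptges2 and Ptges3, the receptor genes Ptger2 and Ptger4, and Hpgd and Ptgr1 of prostaglandin breakdown. All 10 had a row, and 8 reached the mean of 1 TPM (a transcript level scaled for transcript length and for the library's total) over the 6 libraries that was required for a test. Ptgs1 and Ptger2 did not reach it and are given as values.

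The organoids came from 3 wt C57BL/6 mice labelled as controls and 3 wt C57BL/6 mice given dextran sodium sulfate (DSS), which injures colon epithelium and causes colitis. DSS was given at 2.5% in drinking water for 5 days, first at 10 weeks of age and again after 2 weeks, which makes 2 courses. Organoids were set up on day 14 after DSS and RNA was taken on day 4 of culture, with 1 library per mouse. All 6 mice were labelled wt, and the ages of the control mice are not listed. The study's methods list for wt organoids a medium with L-WRN conditioned medium, fetal bovine serum and small molecules, among them the p38 kinase inhibitor SB203580. The cultures held no added stroma, and in bulk RNA fewer cells of a type and less RNA per cell cannot be told apart.

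Prostaglandins are lipid signals made from arachidonic acid. Cytosolic phospholipase A2, encoded by Pla2g4a, frees arachidonic acid from membranes, a cyclooxygenase turns it into prostaglandin H2, and a terminal synthase makes prostaglandin E2 from that. Ptgs1 encodes the cyclooxygenase that many tissues make steadily, and Ptgs2 the one that is induced by growth factors, cytokines and injury. Of the receptors for prostaglandin E2, EP2 and EP4, encoded by Ptger2 and Ptger4, raise cyclic AMP. The enzyme 15-hydroxyprostaglandin dehydrogenase, encoded by Hpgd, begins its breakdown, and prostaglandin reductases such as that encoded by Ptgr1 carry it further. In the colon this pathway is known for its part in epithelial repair after injury and in tumour growth, and Hpgd for being lost in many colorectal tumours.

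Between 11328 and 11607 genes reached 1 TPM per library, and sequencing depth is unknown because TPM keeps none. DSS replicate 1 stood apart from DSS replicates 2 and 3 on the second principal component, which held 25.2% of the variance. Epithelial markers were high in all 6 libraries, with Epcam between 726.4 and 1222 TPM and the keratin gene Krt8 between 3117 and 6219 TPM. Of 8 tested, 2 rose and 0 fell. Epcam rose from at most 826.3 TPM in control to at least 1007 TPM in DSS libraries (limma adjusted p = 0.0311). Cdx2 rose from between 142.1 and 157.2 TPM to between 301.9 and 327.5 TPM (limma adjusted p = 0.00553). The lowest Krt8 value was that of DSS replicate 1, where the colonocyte keratin gene Krt20 was 17.1 TPM against at least 90.0 TPM elsewhere. The summed TPM of 14 myeloid markers was 58.7 to 78.4 in control and 209.1 to 353.5 in DSS libraries, and 4 of the 7 tested rose (Lyz2, Tyrobp, Fcer1g and Itgam). Most of this sum was Cd14 in control (50.7 to 69.8 TPM) and Lyz2 in DSS libraries (122.6 to 226.8 TPM). Cd14 and Cd68 did not pass. Mrc1 was lower in DSS libraries, at 0.16 to 1.27 TPM against 2.62 to 3.45 TPM in control, and did not pass either (limma adjusted p = 0.0548). Of 8 fibroblast markers Vim alone was tested and rose, from at most 1.51 to between 5.92 and 15.9 TPM (limma adjusted p 0.058 to 0.0743 without any one control library or DSS replicate 3), while Col1a2, Col3a1, Lum and Thy1 were listed at 0 in every library.

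Of the 8 tested prostaglandin genes 1 changed: Ptgs2 fell in DSS organoids, and 0 rose. In the same fit 1204 of 11643 tested genes passed an adjusted p of 0.05, which is 10.3%, with 3.89% lower and 6.45% higher, so that 1 call among 8 (12.5%) is close to the share over all genes. Values of control and DSS libraries did not overlap for 2 of the 8, Ptgs2 and Ptges3, where 36.4% of all tested genes had no overlap. The median log2 fold change of the 8 was −0.15, beside 0.05 over all tested genes. By unadjusted p under 0.05, 1 of the 8 and 29.6% of all tested genes passed.

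**Figure D1:**
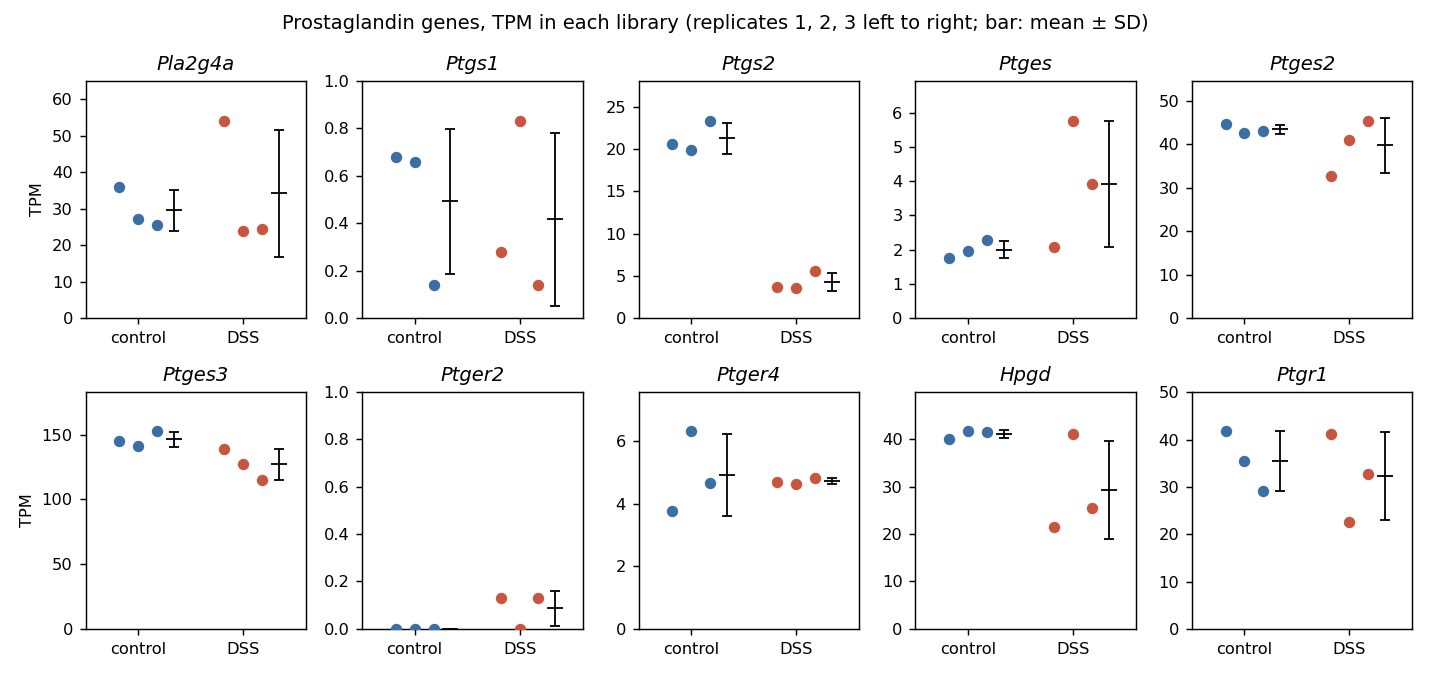
TPM (vertical axis, from 0, a separate scale for each gene) of the 10 prostaglandin genes in the 3 control and 3 DSS libraries; points are libraries with replicates 1, 2 and 3 from left to right, and the bar is the mean ± SD. Ptgs2 lies between 19.9 and 23.4 TPM in the controls and between 3.57 and 5.55 TPM after DSS, while the other genes overlap or nearly meet.

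Ptgs2, which encodes the inducible cyclooxygenase 2, was 20.6, 19.9 and 23.4 TPM in control replicates 1, 2 and 3 and 3.74, 3.57 and 5.55 TPM in DSS replicates 1, 2 and 3. Every DSS library was thus below every control library, with a wide gap between the groups and little spread within them. The means were 21.3 ± 1.84 and 4.29 ± 1.10 TPM (SD, n = 3 each), a level 4.97-fold lower in DSS organoids. The log2 fold change was −2.09 (SE 0.17, 95% interval −2.50 to −1.68, limma adjusted p = 0.00518). By p-value Ptgs2 ranked 17 among the 11643 tested genes, and by size of the fall 59. With only 20 ways to arrange 3 and 3 libraries, an exact permutation p (two-sided, on mean TPM) could not go below 0.1, and Ptgs2 reached that value. The call held with each library left out in turn, with log2 fold changes between −2.26 and −2.0 and limma adjusted p between 0.00391 and 0.0401. DSS replicate 1, which stood apart in the whole profile, had about the same Ptgs2 level as DSS replicate 2. Some markers of other cell types also differed between the groups. Besides the myeloid sum, that of 9 mast cell markers was 21.5 to 33.9 TPM in control and 2.65 to 5.77 TPM in DSS organoids. Most of the control sum was Cma1, which fell (19.6 to 30.9 TPM in control and 1.01 to 1.59 TPM in DSS organoids). Kit, the other of the 2 tested, did not pass (0.80 to 2.84 and 1.06 to 4.28 TPM, log2 fold change 0.28, limma adjusted p = 0.703). Cpa3, Mcpt2, Mcpt4, Tpsb2 and Ms4a2 were listed at 0 in every library. The sum of 5 platelet markers was 1.65 to 3.98 TPM in control and 33.8 to 62.4 TPM in DSS organoids. Of 3 tested Pf4 rose and made up most of the DSS sum (30.5 to 56.7 TPM), and Gp9 was listed at 0 in every library. The part of these cell types in the Ptgs2 result was not tested.

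The promoter windows of both cyclooxygenase genes are shown because Ptgs2 was well expressed and fell while its isoenzyme gene Ptgs1 stayed under 1 TPM in every library. Each runs from 250 bases before to 50 bases after the RefSeq start, 5′ to 3′ on the gene's strand (GRCm38.p6, chr1:150099781-150100080, + strand, for Ptgs2 and chr2:36230176-36230475, + strand, for Ptgs1), an older build than that used for the expression values. Capitals mark matches to the motifs searched.
Ptgs2: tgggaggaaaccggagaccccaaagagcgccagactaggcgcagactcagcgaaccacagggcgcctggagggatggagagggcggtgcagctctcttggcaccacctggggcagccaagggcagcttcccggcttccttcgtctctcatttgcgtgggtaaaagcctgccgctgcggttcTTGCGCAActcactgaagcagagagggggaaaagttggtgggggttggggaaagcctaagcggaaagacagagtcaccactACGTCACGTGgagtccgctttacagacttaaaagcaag
Ptgs1: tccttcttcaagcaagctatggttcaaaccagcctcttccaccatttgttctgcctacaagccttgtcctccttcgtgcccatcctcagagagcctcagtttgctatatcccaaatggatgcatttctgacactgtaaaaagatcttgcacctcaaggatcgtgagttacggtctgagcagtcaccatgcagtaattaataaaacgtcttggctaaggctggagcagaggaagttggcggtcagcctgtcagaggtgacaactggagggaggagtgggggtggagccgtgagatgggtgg

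Searched on both strands were the cyclic AMP response element TGACGTCA and its shorter form TGACGT, the E-box CACGTG, the C/EBP palindrome TTGCGCAA, the AP-1 motif TGANTCA, the TATA box written as TATAAA, and the kB site, which needs other letters. The Ptgs2 window held TTGCGCAA at bases 182 to 189 and, near its end, TGACGT (read as ACGTCA on the printed strand) at bases 263 to 268, which shares its last 2 bases with CACGTG at bases 267 to 272. TTGCGCAA lay before the RefSeq start, and TGACGT and CACGTG lay after it. Of 32851 windows of the same length in the table, 0.183% held TTGCGCAA, 7.51% TGACGT and 7.15% CACGTG. The Ptgs1 window held 0 of these motifs. Of the other prostaglandin genes, Ptges2 held CACGTG, Ptges3 a kB site, and Pla2g4a and Hpgd TATAAA. Over all windows 8.46% held a kB site and 13.6% TATAAA. The TATAAA match of Hpgd lay at bases 255 to 260, after the RefSeq start. That of Pla2g4a lay at bases 51 to 56 and on the opposite strand, in the window at chr1:149922390-149922689. The other window of Pla2g4a, at chr1:149961241-149961540, held no match. Such a match describes the letters of the window and no binding was measured here.

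The profiles over the 6 libraries that lay nearest to that of Ptgs2 were those of 3 genes, measured as the root mean square difference of centred log2(TPM + 1) values. These were Msln, which encodes mesothelin, with a difference of 0.15, the homeobox gene Meis3 with 0.21, and the sodium-proton exchanger gene Slc9a4 with 0.22, where the median over all tested genes was 1.10. Slc9a4 was 10.1, 10.8 and 10.8 TPM in the controls and 1.53, 2.52 and 2.28 TPM after DSS, a level about as far apart as that of Ptgs2. Meis3 lay between 4.05 and 5.78 TPM in the controls and between 0.35 and 0.87 TPM after DSS. These genes were chosen for lying nearest to Ptgs2 in the same libraries, so their difference between the groups follows from the choice and is given as a description with no test.

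Ptgs1, the constitutive cyclooxygenase gene, had a low level in both groups. It was listed at 0.68, 0.66 and 0.14 TPM in the controls and at 0.28, 0.83 and 0.14 TPM after DSS. The groups overlapped fully, and the means of 0.493 ± 0.306 and 0.417 ± 0.365 TPM (SD, n = 3 each) differed by less than the spread between libraries. With no filter on low values the log2 fold change was −0.08 (SE 0.23, limma adjusted p = 0.859). Ptgs2 was therefore the main cyclooxygenase transcript in each library, also in DSS organoids, but by a ratio that varied widely: 30.3, 30.2 and 167.1 times Ptgs1 in control and 13.4, 4.30 and 39.6 times in DSS libraries. At such low Ptgs1 levels this ratio moves with small differences of Ptgs1, and the ratios of the groups overlapped. Tuft cells, a chemosensory epithelial type known to express Ptgs1, were followed by 9 markers, whose summed TPM was 20.4 to 28.3 in control and 5.12 to 18.3 in DSS libraries. Of these Pou2f3 and Il25 were listed at 0 in every library and Dclk1 was at most 0.17 TPM, while of the 3 tested Avil fell and Alox5ap, also known from myeloid cells, rose, calls that 9 and 3 of the alternatives respectively did not keep. Avil made up most of the control sum, at 18.8 to 25.4 TPM, and was 1.91 to 11.9 TPM in DSS libraries.

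Pla2g4a, whose product supplies arachidonic acid, lies beside Ptgs2 in the mouse genome with no other protein-coding gene between them. Its TPM was 36.1, 27.1 and 25.5 in control and 54.2, 23.9 and 24.6 in DSS libraries. DSS replicate 1 was highest of all 6, and DSS replicates 2 and 3 lay just below the controls. The log2 fold change was 0.12 (SE 0.32, 95% interval −0.65 to 0.89, limma adjusted p = 0.844), and without DSS replicate 1 it was −0.26. Its 95% interval lay wholly above that of its neighbour Ptgs2, though the difference between the genes was not tested. Between them RefSeq lists the non-coding RNA gene Ptgs2os, which is read from the region upstream of Ptgs2 and was listed at 0 in 5 libraries and at 0.04 TPM in DSS replicate 3.

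The terminal synthase genes kept very different levels. Ptges encodes microsomal prostaglandin E synthase 1, the inducible synthase that works with cyclooxygenase 2. It was 1.77, 1.97 and 2.27 TPM in the controls and 2.08, 5.77 and 3.92 TPM after DSS. DSS replicate 1 lay within the control range, and DSS replicates 2 and 3 lay above it. The means were 2.00 ± 0.25 and 3.92 ± 1.85 TPM (SD, n = 3 each), a log2 fold change of 0.64 that did not pass (SE 0.29, 95% interval −0.06 to 1.35, limma adjusted p = 0.200). Without DSS replicate 1 it was 0.95 and passed (limma adjusted p = 0.0241), and without DSS replicate 2 it was 0.38 (adjusted p = 0.335). The summed myeloid markers were 256.8, 353.5 and 209.1 TPM in DSS replicates 1, 2 and 3, and Vim was 5.92, 15.9 and 10.2 TPM. Both, like Ptges, were highest in DSS replicate 2. Ptges and Vim were lowest in DSS replicate 1, whereas the myeloid sum was lowest in DSS replicate 3. The part of other cells in the Ptges value was not tested. The annotation has a non-coding RNA gene and a pseudogene that overlap Ptges, whose reads may not have been told apart from those of Ptges.

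Ptges2 encodes a membrane-associated synthase that is made steadily. Its TPM was 44.6, 42.7 and 42.9 in control and 32.8, 40.9 and 45.4 in DSS libraries, with DSS replicate 1 lowest (log2 fold change −0.14, SE 0.14, 95% interval −0.46 to 0.19, limma adjusted p = 0.544). Ptges3 encodes the cytosolic synthase, a protein also known as p23, a co-chaperone of Hsp90, and had the highest level of the 10 genes. It was 145.2, 141.1 and 152.6 TPM in the controls and 138.9, 127.0 and 115.0 TPM after DSS. All DSS libraries lay below all controls, but only by a small step, and the log2 fold change of −0.21 did not pass (SE 0.10, 95% interval −0.45 to 0.04, limma adjusted p = 0.231). A pseudogene copy, Ptges3-ps, was listed at 23.5 to 30.1 TPM, and reads of such copies are shared among them by estimation, so the Ptges3 level is uncertain. Within each library the ratio of Ptges to Ptges2 was −4.66, −4.44 and −4.24 on the log2 scale in control and −3.98, −2.83 and −3.53 in DSS libraries. This ratio was higher in each DSS library than in any control, a description that carries no test.

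**Figure D2:**
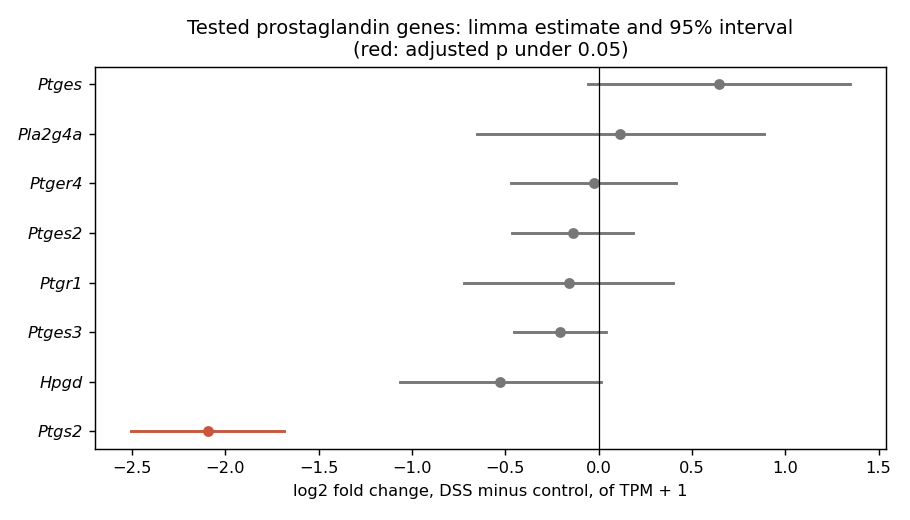
Log2 fold change of TPM + 1 (horizontal axis, DSS minus control) of the 8 tested prostaglandin genes, with the limma estimate as a point and its 95% interval as a line, red where the adjusted p was under 0.05. The interval of Ptgs2 runs from −2.50 to −1.68 and the intervals of the other 7 genes include 0.

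Of the receptor genes Ptger4 was the one with a clear level. Its TPM was 3.75, 6.31 and 4.67 in control and 4.68, 4.63 and 4.82 in DSS libraries. The DSS values lay within the control range and were closer together (SD 0.0985 TPM against 1.3 TPM in control, n = 3 each). The log2 fold change was −0.03 (SE 0.19, 95% interval −0.47 to 0.41, limma adjusted p = 0.938), and its sign turned without control replicate 2 (0.14). Ptger2 was listed at 0 in all control libraries and in DSS replicate 2, and at 0.13 TPM in DSS replicates 1 and 3, too low to compare. The receptor genes Ptger1 and Ptger3, for EP1 and EP3, lay under the filter at 0.35 to 0.80 TPM and at 0.29 to 1.3 TPM. Ptger3 was 1.3, 0.99 and 0.66 TPM in the controls and 0.55, 0.30 and 0.29 TPM after DSS, which did not overlap. Receptor genes of the other prostanoids (Ptgdr, Ptgdr2, Ptgfr, Ptgir and Tbxa2r) were listed at 0.09 TPM or less in every library.

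Hpgd, which encodes the dehydrogenase that inactivates prostaglandin E2, was 40.0, 41.6 and 41.5 TPM in the controls and 21.5, 41.0 and 25.4 TPM after DSS. DSS replicate 2 lay within the narrow control range, while DSS replicates 1 and 3 were well below it. The means of 41.1 ± 0.9 and 29.3 ± 10.3 TPM (SD, n = 3 each) gave a log2 fold change of −0.53 that did not pass (SE 0.23, 95% interval −1.06 to 0.01, limma adjusted p = 0.177). Without DSS replicate 2 it was −0.79 and passed (limma adjusted p = 0.0160), and without DSS replicate 1 it was −0.34 (adjusted p = 0.244). Hpgd is known from differentiated colonocytes, and the summed TPM of 8 markers of these cells was 9132, 7111 and 5109 in control and 2180, 8432 and 8286 in DSS libraries. Of the 8, Guca2a rose and 0 fell. These markers did not share an order over the DSS libraries. Krt20 (17.1, 247.7 and 166.2 TPM in DSS replicates 1, 2 and 3), Aqp8, Car1 and Ceacam20 were highest in replicate 2 and lowest in replicate 1, as Hpgd was. Slc26a3 (339.2, 225.0 and 305.1 TPM) and Slc37a2 ran the opposite way, Guca2a was lowest in replicate 2, and Car4 was highest in replicate 3. The relation of these markers to Hpgd was not tested.

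Ptgr1, whose product reduces the 15-oxo form that Hpgd's product makes and also inactivates leukotriene B4, was 41.8, 35.6 and 29.2 TPM in the controls and 41.3, 22.7 and 32.8 TPM after DSS. Both groups spread over much the same range (log2 fold change −0.16, SE 0.23, 95% interval −0.72 to 0.40, limma adjusted p = 0.693). The sign turned without DSS replicate 2 (0.06). Within the DSS group Ptgr1 was lowest in replicate 2, where Hpgd and Ptges were highest.

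In control organoids Ptges3 had the highest level of the 10 genes, followed by Ptges2, Hpgd, Ptgr1, Pla2g4a, Ptgs2, Ptger4, Ptges, Ptgs1 and Ptger2. Hpgd and Ptgr1 overlapped, as did Ptgr1 and Pla2g4a, and all other neighbours in this order were separate over the 3 libraries. In DSS organoids Ptges2, Pla2g4a, Ptgr1 and Hpgd overlapped as neighbours, and so did Ptger4, Ptgs2 and Ptges. Ptgs2, which stood well above Ptger4 and Ptges in every control library, lay at their level in DSS libraries. Set against Hpgd in the same library, which makes the value independent of scaling between libraries, Ptgs2 was at a log2 ratio of −0.96, −1.07 and −0.83 in control and −2.52, −3.52 and −2.19 in DSS libraries. Hpgd was thus 1.78 to 2.09 times Ptgs2 in control and 4.58 to 11.5 times in DSS libraries, with the widest ratio in DSS replicate 2. The mean difference of the log2 ratio was −1.80, smaller than the fall of Ptgs2 itself on that scale because Hpgd was also lower in DSS replicates 1 and 3.

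**Figure D3:**
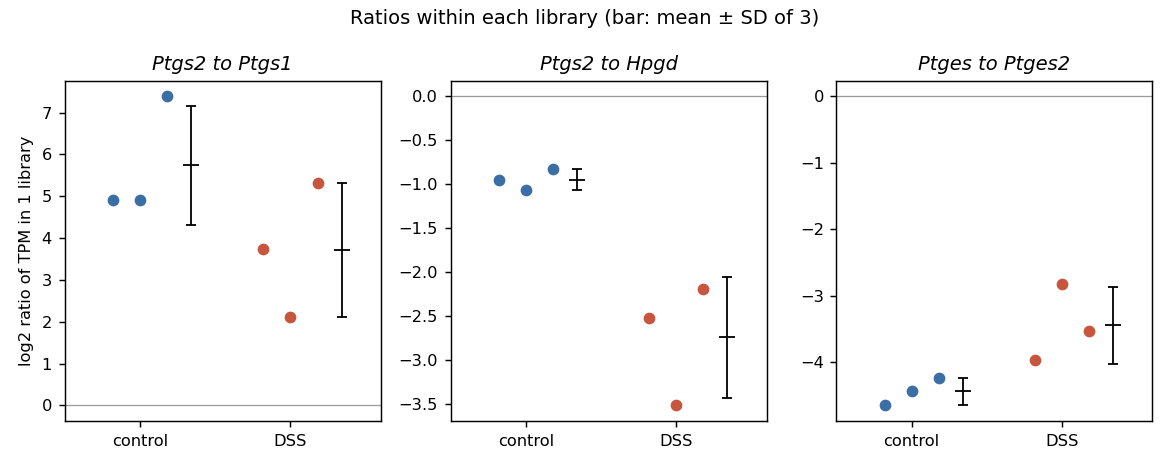
Log2 ratio of 2 genes' TPM within each library (vertical axis) for Ptgs2 to Ptgs1, Ptgs2 to Hpgd and Ptges to Ptges2; points are libraries and the bar is the mean ± SD of 3. The ratio of Ptgs2 to Hpgd lies between −1.07 and −0.83 in control and between −3.52 and −2.19 in DSS libraries, and that of Ptgs2 to Ptgs1 overlaps between the groups.

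The rest of the pathway was read from a list of 40 genes for other phospholipases, prostanoid synthases, reductases, transporters and receptors. Of these 25 were tested, 2 rose (Pla2g3 and Zadh2) and 1 fell (Pla2g12a), a share of 12.0% beside the 10.3% over all genes, and the median log2 fold change was 0.21. The other 15 lay under the filter, with no value above 2 TPM. The secreted phospholipase gene Pla2g3 was 2.80, 1.38 and 1.42 TPM in the controls and 4.04, 5.14 and 4.57 TPM after DSS (log2 fold change 0.99, SE 0.23, limma adjusted p = 0.0428). Zadh2, another name for prostaglandin reductase gene Ptgr3, was 38.0, 32.1 and 34.2 TPM in the controls and 44.8, 55.1 and 59.5 TPM after DSS (0.59, SE 0.14, adjusted p = 0.0432). Pla2g12a, also a secreted phospholipase gene, was 33.6, 31.7 and 30.5 TPM in the controls and 21.9, 22.0 and 20.0 TPM after DSS (−0.56, SE 0.10, adjusted p = 0.0242). None of these 3 calls held with every library left out, and without any one of the control libraries or DSS replicate 3 no gene of this list passed.

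Groups did not overlap for 7 of the 25 tested genes of the list, where 36.4% of all tested genes had no overlap. The genes given next, some with and some without overlap, did not pass with all 6 libraries. Pla2g10, a phospholipase gene active in colon epithelium, was 42.8, 25.6 and 21.5 TPM in the controls and 102.0, 52.1 and 61.3 TPM after DSS (log2 fold change 1.23, SE 0.32, limma adjusted p = 0.0596, or 0.0473 without DSS replicate 2). Pla2g2a, whose coding sequence is naturally disrupted in C57BL/6 mice, was 12.0, 11.2 and 25.7 TPM in the controls and 44.9, 51.2 and 22.3 TPM after DSS (1.24, SE 0.40, adjusted p = 0.0987). Cbr1 and Cbr3 encode carbonyl reductases, of which Cbr1 can convert prostaglandin E2. They had log2 fold changes of 0.35 (SE 0.09, adjusted p = 0.0551, or 0.0436 without DSS replicate 1) and 0.34 (SE 0.12, adjusted p = 0.114) at levels above 360 TPM in every library, and reads may be shared between these related genes. Hpgds, a prostaglandin D synthase gene of tuft and immune cells, was 1.19 to 2.47 TPM over all libraries (−0.25, adjusted p = 0.537). Among the transporter genes, Slco2a1, which takes up prostaglandins, was 0.51 TPM in DSS replicate 1 and 3.32 to 4.66 TPM in the other 5 libraries (log2 fold change −0.46, limma adjusted p = 0.578), and its log2 fold change turned to 0.14 without DSS replicate 1 (adjusted p = 0.534). The exporter gene Abcc4 was 77.9 to 102.3 TPM (−0.14, adjusted p = 0.502).

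**Figure D4:**
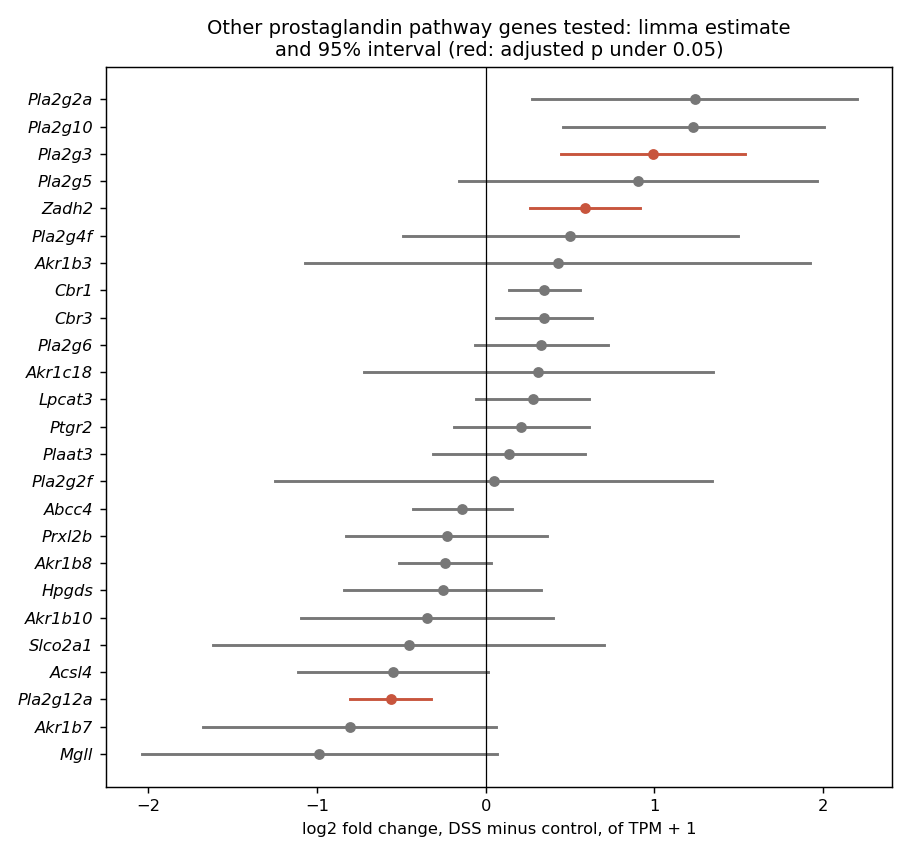
Log2 fold change of TPM + 1 (horizontal axis, DSS minus control) of the 25 tested genes of the wider prostaglandin pathway, with the limma estimate as a point and its 95% interval as a line, red where the adjusted p was under 0.05. Pla2g3 and Zadh2 lie above 0 and Pla2g12a below it; the phospholipase genes Pla2g2a and Pla2g10 have larger estimates (1.24 and 1.23) but wider intervals.

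EP2 and EP4 signal through cyclic AMP, so 18 genes known to respond to it or to carry the response were listed. Of the 14 tested, Creb1, which encodes the cyclic AMP response factor, rose and the nuclear receptor gene Nr4a1 fell, a share of 14.3% beside the 10.3% over all genes. Nr4a1 was 20.1, 20.9 and 21.6 TPM in the controls and 5.97, 8.21 and 6.54 TPM after DSS (log2 fold change −1.48, SE 0.14, limma adjusted p = 0.00623, or 0.0529 without control replicate 2). Creb1 was 7.83, 7.36 and 7.73 TPM in the controls and 12.4, 12.7 and 11.4 TPM after DSS (0.61, SE 0.11, adjusted p = 0.0252). The Creb1 call was lost in 6 of 14 alternatives, namely without any one control library or DSS replicate 3 (adjusted p 0.0843 to 0.134), with the replicate block (0.0733) and with no filter (0.0519). The growth factor gene Areg was 772.8, 941.4 and 1032 TPM in the controls and 61.1, 659.2 and 295.3 TPM after DSS. Its groups did not overlap, but the DSS libraries differed widely among themselves and the log2 fold change of −1.99 did not pass (SE 0.78, limma adjusted p = 0.148). Without DSS replicate 1 it was −1.04 (adjusted p = 0.0700), and without DSS replicate 2 it was −2.75 (adjusted p = 0.0405). The median log2 fold change of the 14 was −0.18.

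Of 17 known regulators of Ptgs2 transcription or mRNA decay, 16 were tested and 0 passed in limma, with 4 at an unadjusted p under 0.05 (25.0%, beside 29.6% of all tested genes). The 4 were Nfkb1, Zfp36l2, Tia1 and Myd88. Nfkb1, an NF-kB subunit gene, was 26.2, 28.6 and 27.6 TPM in the controls and 30.6, 39.8 and 36.4 TPM after DSS (log2 fold change 0.36, SE 0.12, limma adjusted p = 0.116, or 0.0224 without DSS replicate 1). Myd88, an adaptor gene of Toll-like receptors, was 39.1 to 39.6 TPM in the controls and 32.1 to 32.9 TPM after DSS (−0.27, SE 0.09, adjusted p = 0.0987). Cebpb, which encodes a factor that binds C/EBP motifs such as that printed in the Ptgs2 window, was 58.3, 51.5 and 64.6 TPM in the controls and 21.6, 78.9 and 53.9 TPM after DSS. Its DSS values lay on both sides of the controls, with a log2 fold change of −0.35 (adjusted p = 0.635) and of 0.17 without DSS replicate 1. Transcripts of the mRNA decay factor Zfp36 were 55.8 to 69.6 TPM in the controls and 42.5 to 82.1 TPM after DSS. Those of Zfp36l2 were 65.5 to 79.5 TPM in the controls and 82.1 to 97.6 TPM after DSS (log2 fold change 0.34, SE 0.12, limma adjusted p = 0.110). Tia1 was 4.09 to 6.06 TPM in the controls and 7.07 to 13.3 TPM after DSS (0.74, SE 0.25, limma adjusted p = 0.103). Transcript levels of these genes do not show the activity of their proteins.

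**Figure D5:**
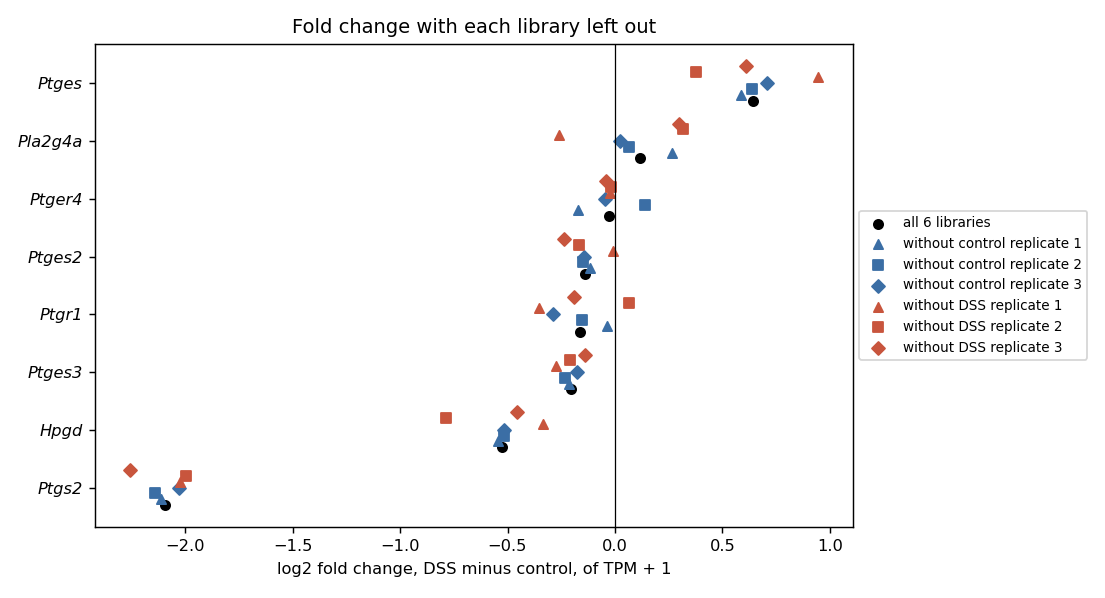
Log2 fold change of TPM + 1 (horizontal axis, DSS minus control) of the 8 tested prostaglandin genes with all 6 libraries and with each library left out in turn (marker shape and colour). Ptgs2 stays between −2.26 and −2.0; Ptges rises to 0.95 and Pla2g4a turns to −0.26 without DSS replicate 1, and Hpgd goes to −0.79 without DSS replicate 2.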

How the data were processed

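RNA-seq was performed on 6 organoid libraries. Per the submitters' processing notes and the study's methods, the authors trimmed reads with Trim Galore 0.6.7 and cutadapt 3.5, prepared the reference with STAR 2.7.7a, mapped with STAR 2.7.10a and calculated TPM with RSEM 1.3.1 on GRCm39. The authors deposited TPM values per gene, which keep no depth, so no counting interval is given. RSEM divides reads that fit several copies by estimation. The library kit is not stated to mark strand.

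Groups came from the treatment labels. Genes with a mean of at least 1 TPM were tested as log2(TPM + 1) with limma 3.58.1 in R 4.3.3 (empirical Bayes with a mean-variance trend, two-sided), and p-values were adjusted by Benjamini-Hochberg over all 11643 genes at a threshold of 0.05. Fold changes on this scale understate the change of low genes. The fit was also run on simulated data, whose outcome is not given here. Their noise was independent for each gene and library, so they cannot show how the fit handles a library that stands apart. The single-gene permutation test was exact. Every prostaglandin gene was named, and other genes were named from written lists when they passed the threshold; further genes of these lists, and the single markers given, were chosen after their values were seen. The genes and lists were chosen with earlier results of these data known. A planned ratio of Ptger4 to Ptger2 was not given because Ptger2 was listed at 0 in 4 libraries. Ptgr3 was read from the row Zadh2, and Icer had no row of its own. All 10 genes matched the RefSeq promoter table (GRCm38.p6), whose build differs from that of the values, so it gave sequences and neighbours only. Each library came from a different mouse per the series description. Alternatives were other scalings, pseudocounts, filters, a fit without the trend, a replicate block and leaving out each library.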

Additional observations from a re-analysis of the deposited data

How the results depend on the processing

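The fall of Ptgs2 kept its direction and its call under all 14 alternatives, with log2 fold changes from −2.31 to −1.51 and limma adjusted p from 0.00341 to 0.0401. The count of prostaglandin genes passing was 1 under every setting except without DSS replicate 1, which added Ptges, and without DSS replicate 2, which added Hpgd (range 1 to 2 with 1 library left out). Calls over all genes numbered 759 with no filter and 531 with the replicate block, and 30 to 2498 with 1 library left out, the lowest without control replicate 2. For the wider pathway list 3 calls became 1 with no filter (Pla2g12a) and 1 with the replicate block (Pla2g10), and 0 to 6 with 1 library left out. The log2 fold changes that changed sign were within these ranges with 1 library left out: −0.26 to 0.31 for Pla2g4a, −0.17 to 0.14 for Ptger4, −0.35 to 0.064 for Ptgr1, −0.81 to 0.14 for Slco2a1 and −0.74 to 0.17 for Cebpb. Why these values move was not tested.

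Deviations from the group means correlated at 0.20, 0.03 and 0.04 between the groups for replicates 1, 2 and 3, and control replicate 2 correlated best with DSS replicate 3. Deviations from a mean of 3 libraries sum to 0, so these correlations depend on each other. They cannot decide whether the replicate numbers pair the libraries. With the block the limma adjusted p of Ptgs2 was 0.0109. Of all calls 62.4% were higher in DSS on TPM, 52.1% after median-ratio scaling (634 higher, 582 lower) and 48.2% after quantile normalization (564 higher, 606 lower), which moved the median of all genes from 0.05 to 0.00 and −0.02. TPM gives no depth, so values under about 1 TPM, such as those of Ptgs1 and Ptger2, have an unknown counting error.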
